A study of Homo sapiens with 12 samples.

Results

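Metallothioneins are small cysteine-rich proteins that bind zinc and copper in the cytosol, and most human metallothionein genes lie side by side on chromosome 16. The 7 genes described here are the metallothionein genes MT2A, MT1E, MT1F, MT1G and MT1X, the transcription factor gene MTF1 and the zinc exporter gene SLC30A1. They were picked by name from the 58735 genes of a table of raw read counts, with values of these libraries already known and without a stated contrast, so the comparisons below describe these libraries and the adjusted p-values of the 7 genes are not independent evidence. In DMSO, each of the 5 metallothionein genes was lower in cells with a guide against UTX than in cells with a control guide, by 5.80-fold for MT1F and by 14.2-fold for MT1E. The 2 other genes, MTF1 and SLC30A1, differed by less than 1.3-fold.

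OCI-AML2 cells, a line from a human acute myeloid leukemia with a rearranged KMT2A (MLL) gene, supplied the RNA. The cells carried 1 of 3 guide RNAs delivered by lentivirus. Guides sgUTX_2 and sgUTX_4 target UTX (gene KDM6A), which encodes a histone H3 lysine 27 demethylase, and are labelled UTX knockout. Guide sgLuc is labelled WT and serves as the control. Each guide was combined with SGC0946, an inhibitor of the histone H3 lysine 79 methyltransferase DOT1L, at 1 µM, or with its vehicle DMSO, for 6 days. The 6 combinations are sgUTX_2 with SGC0946, sgUTX_4 with SGC0946, sgLuc with SGC0946, sgUTX_2 with DMSO, sgUTX_4 with DMSO and sgLuc with DMSO, and each has 2 libraries. "sgUTX" below means the 4 libraries of both UTX guides in 1 treatment. Unless a guide is named, tests took these 4 libraries as replicates of 1 label, and SDs at n = 4 span both guides. Their spread therefore mixes guides with libraries, and sgLuc is the only control guide. All samples derive from 1 cell line, all cells were infected, and neither the labels nor the protocols say whether the cells were clones or pools or whether the 2 libraries of a combination came from separate cultures.

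Zinc that enters the cell binds MTF1, a zinc finger protein that then moves to DNA elements called metal response elements and activates metallothionein genes and SLC30A1. Metallothioneins hold the metal, and SLC30A1 (ZnT1) carries zinc out of the cell at the plasma membrane. Glucocorticoids, oxidants and hypoxia are also known to raise metallothionein transcripts. Monocytes and other leukocytes are known to raise metallothionein transcripts after zinc.

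The coding sequences of the 5 metallothionein genes are shown because their likeness bears on how short reads are assigned to each gene. Each holds 61 codons without the stop codon, or 183 bases, and capitals mark bases that differ from MT2A. The sequences are those of GENCODE 29 transcripts of the genome build GRCh38, from the first codon, 5′ to 3′.
MT2A: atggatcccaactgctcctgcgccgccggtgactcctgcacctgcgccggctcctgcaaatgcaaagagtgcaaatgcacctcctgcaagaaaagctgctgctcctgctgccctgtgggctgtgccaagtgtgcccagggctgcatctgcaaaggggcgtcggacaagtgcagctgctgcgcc
MT1E: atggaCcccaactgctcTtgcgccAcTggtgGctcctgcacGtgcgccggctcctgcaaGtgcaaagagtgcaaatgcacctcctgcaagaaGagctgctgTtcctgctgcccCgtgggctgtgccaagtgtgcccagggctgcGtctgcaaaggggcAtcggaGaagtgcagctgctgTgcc
MT1F: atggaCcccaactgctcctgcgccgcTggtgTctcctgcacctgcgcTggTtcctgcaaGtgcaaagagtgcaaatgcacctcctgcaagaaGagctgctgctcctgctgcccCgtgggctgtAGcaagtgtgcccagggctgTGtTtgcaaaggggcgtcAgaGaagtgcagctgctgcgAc
MT1G: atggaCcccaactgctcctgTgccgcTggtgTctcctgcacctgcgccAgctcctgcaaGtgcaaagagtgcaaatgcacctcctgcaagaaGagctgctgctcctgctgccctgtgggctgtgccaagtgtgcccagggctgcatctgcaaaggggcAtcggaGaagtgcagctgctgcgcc
MT1X: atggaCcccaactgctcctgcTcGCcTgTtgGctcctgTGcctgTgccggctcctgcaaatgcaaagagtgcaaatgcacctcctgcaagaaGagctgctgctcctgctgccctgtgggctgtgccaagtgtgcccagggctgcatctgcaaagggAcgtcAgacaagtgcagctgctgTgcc
MT1G differed from MT2A at 9 bases, MT1E and MT1X at 14 bases each, and MT1F at 16 bases. The longest identical run was 96 bases, between MT1G and MT1X. The reads were pairs of 150 bases, per the labels' protocols, so that a read inside the coding part usually spans several differences, but reads that fit more than 1 gene may have been split or lost. Of all stretches of 100 bases in the annotated transcripts of MT2A, MT1E, MT1F and MT1G, 0% occurred in a transcript of another gene, against 11.3% for MT1X. MT1X overlaps a clone-named gene, AC026461.1, over 321 bases of its exons on the same strand, and reads from that stretch cannot be told apart.

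Promoters are shown for the members found in the RefSeq promoter table (GRCh38.p14), which holds 250 bases before and 50 bases after each gene start. It matched 4 of the 7 genes, MT2A, MT1X, SLC30A1 and MTF1. MT1E, MT1F and MT1G had no entry. Capitals mark the core of the metal response element, searched as TGCACNC or TGCGCNC on both strands, so that a match on the minus strand reads GNGTGCA or GNGCGCA. The windows are MT2A at chr16:56608334-56608633 on the plus strand, MT1X at chr16:56682220-56682519 on the plus strand, SLC30A1 at chr1:211579112-211579411 on the minus strand and MTF1 at chr1:37859543-37859842 on the minus strand.
MT2A: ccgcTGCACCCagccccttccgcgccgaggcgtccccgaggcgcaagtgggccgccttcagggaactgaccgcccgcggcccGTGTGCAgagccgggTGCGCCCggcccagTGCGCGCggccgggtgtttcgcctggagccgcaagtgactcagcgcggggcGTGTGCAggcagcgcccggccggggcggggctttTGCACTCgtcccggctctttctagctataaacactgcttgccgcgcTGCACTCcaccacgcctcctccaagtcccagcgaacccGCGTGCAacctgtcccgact
MT1X: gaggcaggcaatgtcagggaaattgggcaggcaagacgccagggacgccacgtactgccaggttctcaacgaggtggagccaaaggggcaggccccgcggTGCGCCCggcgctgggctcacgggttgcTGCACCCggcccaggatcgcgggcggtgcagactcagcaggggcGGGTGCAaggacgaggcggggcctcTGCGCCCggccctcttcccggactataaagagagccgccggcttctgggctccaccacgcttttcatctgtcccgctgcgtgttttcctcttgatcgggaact
SLC30A1: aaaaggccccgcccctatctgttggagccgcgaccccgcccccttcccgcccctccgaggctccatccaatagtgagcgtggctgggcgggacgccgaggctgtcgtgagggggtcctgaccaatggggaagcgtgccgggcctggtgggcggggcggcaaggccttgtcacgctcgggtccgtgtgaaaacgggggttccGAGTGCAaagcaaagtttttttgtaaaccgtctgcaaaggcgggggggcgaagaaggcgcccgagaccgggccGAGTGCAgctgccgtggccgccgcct
MTF1: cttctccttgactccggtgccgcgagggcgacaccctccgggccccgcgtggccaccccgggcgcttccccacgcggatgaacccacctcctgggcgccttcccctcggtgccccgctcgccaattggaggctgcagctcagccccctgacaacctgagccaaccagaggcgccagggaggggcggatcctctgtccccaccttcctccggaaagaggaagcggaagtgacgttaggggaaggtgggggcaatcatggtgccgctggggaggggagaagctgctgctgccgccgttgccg
The MT2A window held 8 matches, 5 on the plus and 3 on the minus strand, and MT1X held 4. SLC30A1 held 2 and MTF1 held 0. Of the 34796 distinct promoters of this length in the table, 29.5% held at least 1 match, 8.6% held at least 2, 0.6% at least 4 and 0.02% at least 8. A TATA box (TATAAA on the coding strand) began 30 bases before the start of MT1X and 29 bases before the start of MT2A, and 11.6% of promoters hold these letters on either strand. The antioxidant element TGACNNNGC, searched on both strands, matched once each in MT1X, MT2A and SLC30A1 and in 13.3% of promoters. No match overlapped another, and the MTF1 window without a match says only that these letters were not found there.

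Total counts lay between 15480493 and 23262141 per library. Levels are in CPM, counts divided by the library total and adjusted by the trimmed mean of M-values (TMM), and each fold change is the log2 ratio of a fit over all 15060 genes kept after a filter on low counts, which all 7 genes passed. KDM6A, the gene the guides target, averaged 15.2 ± 1.03 CPM in sgUTX_2, 46.0 ± 4.02 CPM in sgUTX_4 and 34.8 ± 0.411 CPM in sgLuc cells with SGC0946 (SD, n = 2 each). With DMSO it averaged 15.1 ± 0.615 CPM in sgUTX_2, 47.8 ± 2.26 CPM in sgUTX_4 and 30.0 ± 2.91 CPM in sgLuc cells (SD, n = 2 each). The transcript was thus lower than in sgLuc with sgUTX_2 and higher with sgUTX_4. Small edits need not lower a transcript, so this level does not check the label of sgUTX_4, and the groups are named by guide below. The 2 sgLuc DMSO libraries stood apart in their share of counts on 89 ribosomal protein genes. The share was 11.1% to 12.2% in sgUTX SGC0946, 13.04% and 13.2% in sgLuc SGC0946 and 11.2% to 12.1% in sgUTX DMSO libraries, against 17.8% and 19.0% in sgLuc DMSO libraries. MT1E, MT1G, MT1X and MT2A were highest in the same sgLuc DMSO libraries, MT1F was not, and the part of that share in these levels was not tested. All 5 myeloid leukemia markers (CD33, MPO, SPI1, HOXA9, MEIS1) had counts in every group, and the erythroid markers HBA1 and HBB were at 0 in all 12 libraries.

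**Figure D1:**
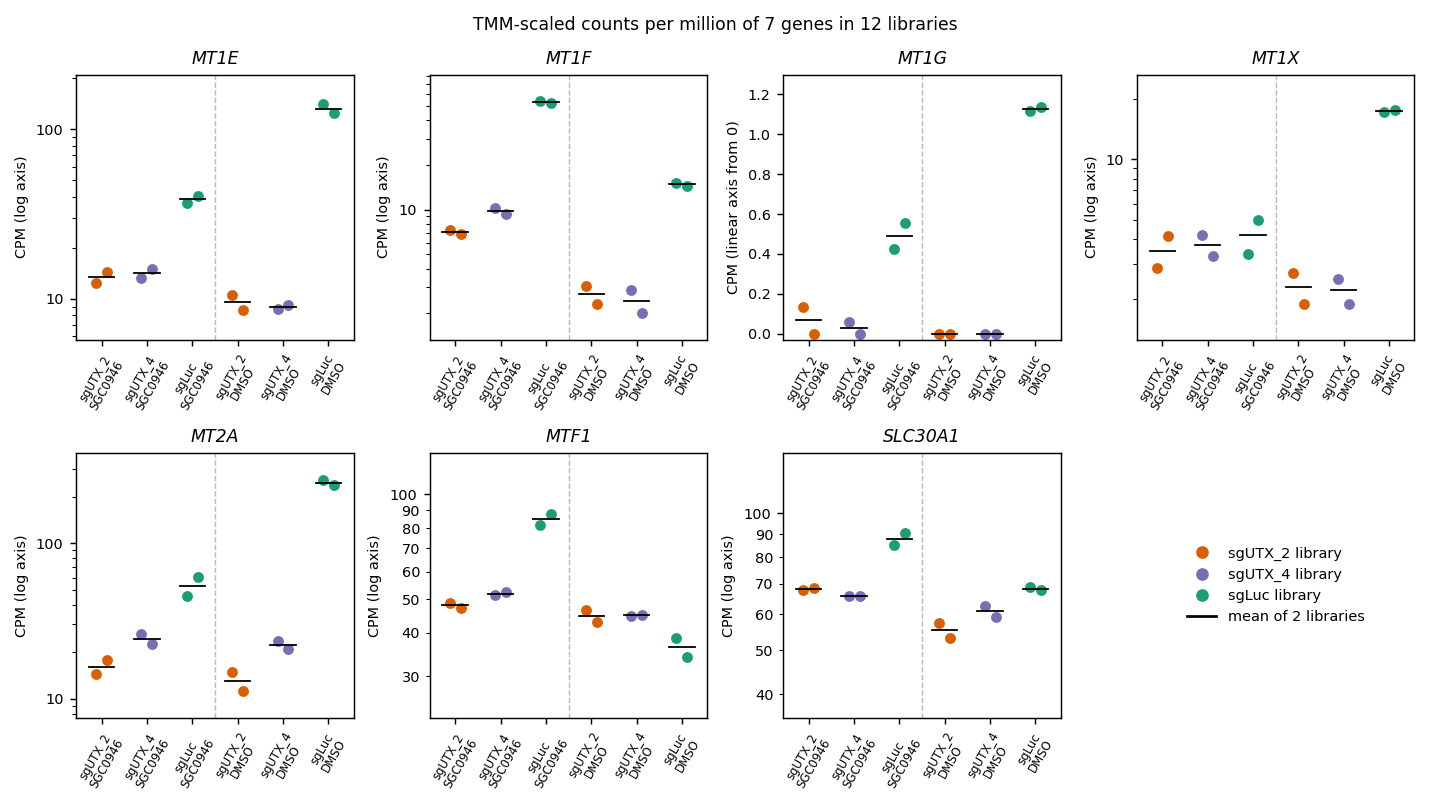
TMM-scaled CPM of the 7 genes (vertical axis, logarithmic except for MT1G) in the 12 libraries, by guide and treatment (horizontal axis). Points are libraries and bars are the means of 2. For MT1E, MT1G, MT1X and MT2A the sgLuc DMSO libraries are the highest of all, for MT1F, MTF1 and SLC30A1 the sgLuc SGC0946 libraries are.

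MT2A, the most abundant metallothionein transcript in sgLuc DMSO cells and the one that most human tissues express, had 14.7 and 11.3 CPM in sgUTX_2 DMSO and 23.5 and 21.0 CPM in sgUTX_4 DMSO libraries, against 255 and 236 CPM in sgLuc DMSO libraries. All 4 sgUTX libraries lay far below both sgLuc libraries, and the 2 guides did not overlap each other. The log2 fold change was -3.82 (SE 0.28, edgeR quasi-likelihood test, adjusted p = 3.22e-06 over all genes), a level 14.1-fold lower. With RNA from whole cultures, fewer cells with a transcript and less of it per cell cannot be told apart.

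MT1E, a second zinc- and copper-binding metallothionein, had 10.5 and 8.63 CPM in sgUTX_2 DMSO and 8.70 and 9.18 CPM in sgUTX_4 DMSO libraries, against 140 and 124 CPM in sgLuc DMSO libraries. The 4 sgUTX libraries spanned a narrow range that both guides shared, well below sgLuc. Its log2 fold change was -3.83 (SE 0.09, adjusted p = 4.5e-19). MT1X had 2.70 and 1.88 CPM in sgUTX_2 DMSO and 2.53 and 1.89 CPM in sgUTX_4 DMSO libraries, against 17.2 and 17.7 CPM in sgLuc DMSO libraries. Its log2 fold change was -2.95 (SE 0.19, adjusted p = 8.12e-12), or 7.75-fold lower, with no overlap.

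MT1F had 3.04 and 2.32 CPM in sgUTX_2 DMSO and 2.86 and 1.997 CPM in sgUTX_4 DMSO libraries, against 15.2 and 14.5 CPM in sgLuc DMSO libraries. Its log2 fold change was -2.54 (SE 0.17, adjusted p = 1.2e-11), the smallest of the 4 metallothioneins that had counts in every library. MT1G, the rarest of the 5, had 0 counts in all 4 sgUTX DMSO libraries, against 18 and 15 counts in the sgLuc DMSO libraries. Set against a floor of 3 counts over the sgUTX group, MT1G was 30.0-fold lower, a value that leaves out the counting error of the sgLuc counts. It passed the filter on low counts only through the sgLuc libraries, where it is high, so its calls in sgUTX against sgLuc carry no weight and no p is given for them.

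MTF1 had 46.4 and 42.9 CPM in sgUTX_2 DMSO and 44.8 and 45.2 CPM in sgUTX_4 DMSO libraries, against 38.8 and 34.2 CPM in sgLuc DMSO libraries. The transcript of this metallothionein activator was therefore slightly higher where the metallothionein transcripts were lower, and its log2 fold change was 0.29 (SE 0.08, adjusted p = 0.00216). Without the second sgLuc DMSO library its adjusted p was 0.0754. SLC30A1 had 57.3 and 53.3 CPM in sgUTX_2 DMSO and 62.5 and 59.3 CPM in sgUTX_4 DMSO libraries, against 68.8 and 67.8 CPM in sgLuc DMSO libraries. Its log2 fold change was -0.23 (SE 0.07, adjusted p = 0.00485), which turned to 0.04 (adjusted p = 0.63) when counts were scaled by library size only. That scaling raised the median log2 fold change of all genes from -0.01 to 0.26, so the change of SLC30A1 relative to all genes was small under both.

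In DMSO, 7 of the 7 genes, MT1G among them, were called in sgUTX against sgLuc (1 higher, 6 lower), where 61.0% of all 15060 genes were called (28.7% higher and 32.3% lower). A call alone therefore says little about these genes in this comparison, and the size of the metallothionein changes is the description. The MT1G call in that count carries no weight. The summed level of the 5 metallothionein genes was 31.7 ± 5.75 CPM in sgUTX DMSO (SD, n = 4), against 411 ± 24.7 CPM in sgLuc DMSO (SD, n = 2), or 12.98-fold lower. Of 4 tested marker genes of monocytes 3 were lower as well, with log2 fold changes of -1.96 for CD14, -2.31 for CSF1R and -0.89 for FCGR1A, while LYZ was at 0.08 (adjusted p = 0.853). The part of these markers' change in the metallothionein levels was not tested. Because metallothionein transcripts are short, genes with coding transcripts of at most 600 bases were described beside them. The median log2 fold change of 173 such genes was -0.25, and their 5th to 95th percentile ran from -3.004 to 0.97.

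SGC0946 changed the picture in sgLuc cells gene by gene. MT2A had 45.6 and 60.3 CPM in sgLuc SGC0946 libraries, against 255 and 236 CPM in sgLuc DMSO libraries. MT1E had 36.8 and 40.2 CPM in sgLuc SGC0946 libraries, against 140 and 124 CPM in sgLuc DMSO libraries. MT1X had 3.38 and 4.99 CPM in sgLuc SGC0946 libraries, against 17.2 and 17.7 CPM in sgLuc DMSO libraries. All 3 genes fell, without overlap, with log2 fold changes of -2.21 for MT2A (SE 0.33, adjusted p = 0.000595), -1.78 for MT1E (SE 0.10, adjusted p = 2.49e-12) and -2.05 for MT1X (SE 0.22, adjusted p = 8.7e-08).

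MT1F went the other way. It had 54.3 and 52.0 CPM in sgLuc SGC0946 libraries, against 15.2 and 14.5 CPM in sgLuc DMSO libraries, which is 1.84 on the log2 scale (SE 0.16, adjusted p = 1.84e-09) or 3.57-fold higher. MTF1 also rose, to 81.8 and 87.8 CPM in sgLuc SGC0946 libraries, against 38.8 and 34.2 CPM in sgLuc DMSO libraries, a difference of 1.21 on the log2 scale (SE 0.09, adjusted p = 8.74e-11). SLC30A1 rose by 0.37 on the log2 scale (SE 0.08, adjusted p = 0.000467), with 85.4 and 90.5 CPM in sgLuc SGC0946 libraries, against 68.8 and 67.8 CPM in sgLuc DMSO libraries. MT1G had 7 and 10 counts in sgLuc SGC0946 libraries, against 18 and 15 counts in sgLuc DMSO libraries, and did not pass the test (adjusted p = 0.147). Of the 7 genes 6 were called, 3 higher and 3 lower, where 48.9% of all genes were called (24.7% higher and 24.2% lower).

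**Figure D2:**
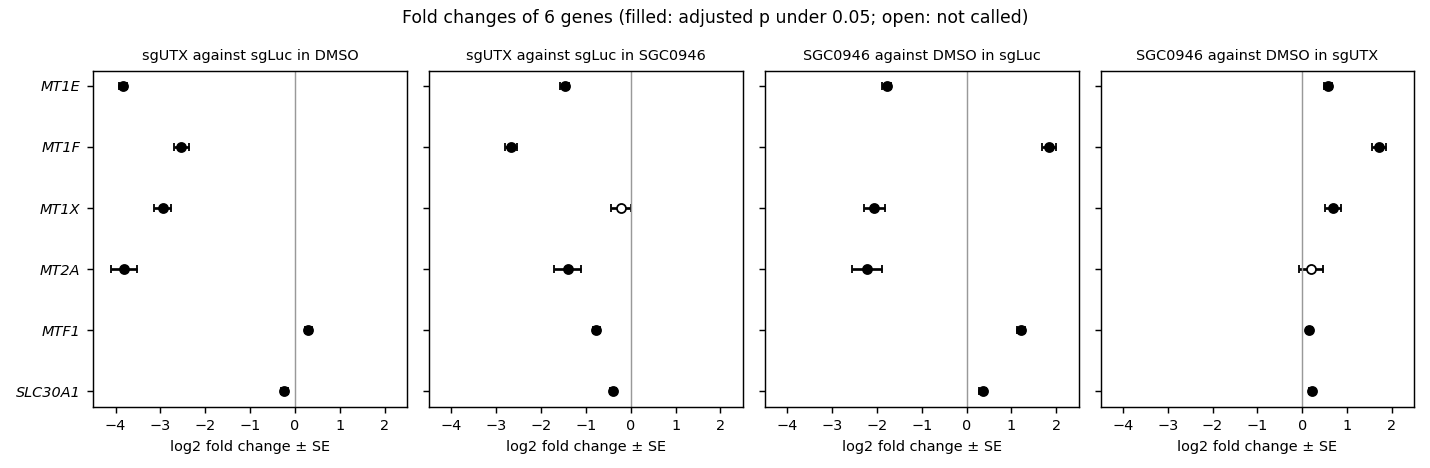
Log2 fold changes with their standard errors (horizontal axes) of the 6 genes that have counts in every library (vertical axis), in 4 comparisons, filled where the adjusted p over all genes was under 0.05. In SGC0946 against DMSO in sgLuc, MT1F lies at 1.84 while MT1E, MT1X and MT2A lie between -2.21 and -1.78, and SLC30A1 in sgUTX against sgLuc in DMSO (-0.23) changes sign when counts are scaled by library size only.

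In sgUTX cells, where the metallothioneins were low in DMSO, MT1F, MT1E and MT1X rose with SGC0946 and none of the 7 genes was called lower. MT1F had 7.35 and 6.81 CPM in sgUTX_2 SGC0946 and 10.3 and 9.30 CPM in sgUTX_4 SGC0946 libraries, against 3.04, 2.32, 2.86 and 1.997 CPM in the sgUTX DMSO libraries. Its log2 fold change was 1.71 (SE 0.15, adjusted p = 4.83e-09), or 3.27-fold. MT1E rose by 0.58 on the log2 scale (SE 0.09, adjusted p = 1.89e-05), with 12.4 and 14.5 CPM in sgUTX_2 and 13.3 and 15.1 CPM in sgUTX_4 SGC0946 libraries, against 8.63 to 10.5 CPM in the sgUTX DMSO libraries. MT1X rose by 0.68 (SE 0.19, adjusted p = 0.00618), with 2.85 to 4.19 CPM in the sgUTX SGC0946 libraries, against 1.88 to 2.70 CPM in the sgUTX DMSO libraries.

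MT2A was not called in sgUTX cells. It had 14.4 and 17.7 CPM in sgUTX_2 and 26.0 and 22.5 CPM in sgUTX_4 SGC0946 libraries, against 14.7, 11.3, 23.5 and 21.0 CPM in the DMSO libraries of the same guides, so the groups overlapped (log2 fold change 0.20, SE 0.27, adjusted p = 0.641). MT1G had 3, 0, 1 and 0 counts in the sgUTX SGC0946 libraries, against 0 counts in all sgUTX DMSO libraries, and did not pass the test (adjusted p = 0.141). SLC30A1 was higher by 0.21 on the log2 scale (SE 0.05, adjusted p = 0.00503), with 65.9 to 68.5 CPM in sgUTX SGC0946, against 53.3 to 62.5 CPM in sgUTX DMSO libraries. MTF1 had 47.1 to 52.4 CPM in sgUTX SGC0946, against 42.9 to 46.4 CPM in sgUTX DMSO libraries, and its log2 fold change was 0.15 (SE 0.06, adjusted p = 0.0488). The MTF1 call was lost without the second sgUTX_2 DMSO, either sgUTX_4 DMSO, either sgLuc SGC0946, the first sgUTX_2 SGC0946 or either sgUTX_4 SGC0946 library (adjusted p 0.0585 to 0.144). Of the 7 genes 5 were called, all higher, where 33.8% of all genes were called (17.4% higher and 16.4% lower). MT1E and MT1F were called with each guide taken alone. MT1X lost its call with sgUTX_2 alone (0.62 on the log2 scale, adjusted p = 0.0643), SLC30A1 lost it with sgUTX_4 alone (0.11, adjusted p = 0.257) and MTF1 lost it with either (adjusted p = 0.349 with sgUTX_2 and 0.052 with sgUTX_4).

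The difference of the 2 SGC0946 responses, sgUTX minus sgLuc, was itself tested. It was 2.41 on the log2 scale for MT2A (SE 0.43, adjusted p = 0.00252), 2.35 for MT1E (SE 0.13, adjusted p = 1.42e-11) and 2.74 for MT1X (SE 0.29, adjusted p = 1.98e-07). The fall of these 3 genes seen in sgLuc cells was thus not seen in sgUTX cells, which started at a level below the treated sgLuc cells for MT2A, MT1E and MT1X. For MTF1 the difference was -1.06 (SE 0.10, adjusted p = 6.78e-08), since it rose more in sgLuc than in sgUTX cells. For MT1F the difference was -0.13 (SE 0.22, adjusted p = 0.697). For SLC30A1 it was -0.16 (SE 0.10, adjusted p = 0.216). Of the 7 genes 4 were called, 3 higher and 1 lower, where 34.8% of all genes were called (18.3% higher and 16.5% lower).

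Under SGC0946, MT1F, MT1E and MT2A were lower in sgUTX than in sgLuc cells, and MT1X was not called. MT1F had 6.81 to 10.3 CPM in sgUTX SGC0946, against 54.3 and 52.0 CPM in sgLuc SGC0946 libraries, a difference of -2.67 on the log2 scale (SE 0.13, adjusted p = 4.69e-14). The log2 fold change was -1.48 for MT1E (SE 0.09, adjusted p = 4.99e-12) and -1.41 for MT2A (SE 0.30, adjusted p = 0.00333), both without overlap. MT1X had 2.85 to 4.19 CPM in sgUTX SGC0946, against 3.38 and 4.99 CPM in sgLuc SGC0946 libraries, and the groups overlapped (log2 fold change -0.22, SE 0.21, adjusted p = 0.399). MT1G had 3 and 0 counts in sgUTX_2 and 1 and 0 in sgUTX_4 SGC0946 libraries, against 7 and 10 in sgLuc SGC0946 libraries. It passed the filter on low counts only through the sgLuc libraries, so no ratio or p is given for it here.

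MTF1 and SLC30A1 were also lower in sgUTX than in sgLuc cells under SGC0946. MTF1 had 47.1 to 52.4 CPM in sgUTX SGC0946, against 81.8 and 87.8 CPM in sgLuc SGC0946 libraries, which is -0.77 on the log2 scale (SE 0.07, adjusted p = 2.88e-09). SLC30A1 had 65.9 to 68.5 CPM in sgUTX SGC0946, against 85.4 and 90.5 CPM in sgLuc SGC0946 libraries, a difference of -0.39 on the log2 scale (SE 0.07, adjusted p = 2.27e-05). The direction of MTF1 between sgUTX and sgLuc was therefore opposite in the 2 treatments. Of the 7 genes 6 were called, all lower and MT1G among them, where 56.9% of all genes were called (27.7% higher and 29.3% lower). As in DMSO, the MT1G call in that count carries no weight. With the 2 sgLuc DMSO libraries left out of the fit, 6 were again called here, and 5 for SGC0946 in sgUTX cells. The shares over all genes in that fit are not given here.

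**Figure D3:**
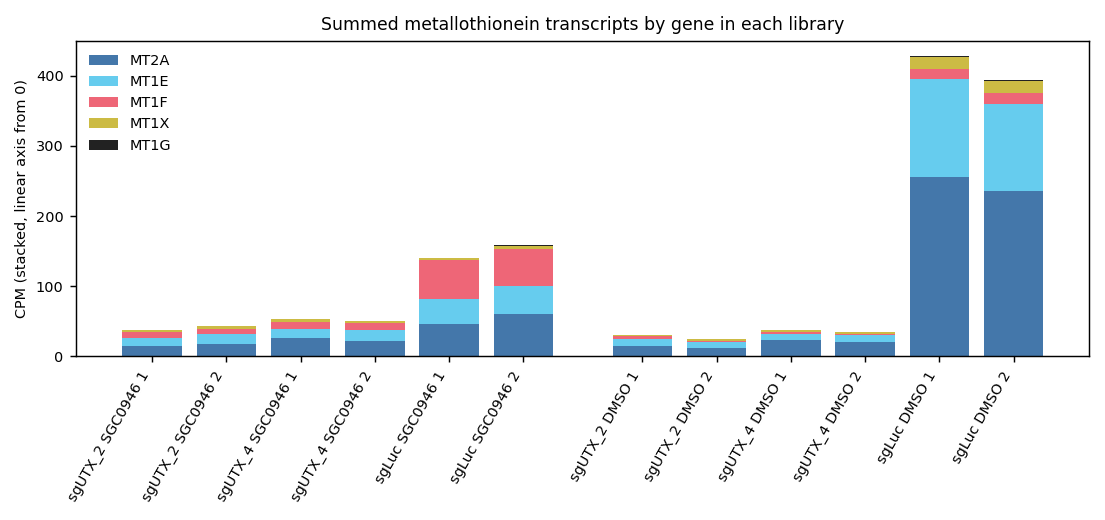
Summed level of the 5 metallothionein genes (vertical axis, TMM-scaled CPM, linear from 0) in each of the 12 libraries (horizontal axis), stacked by gene. The sgUTX libraries lie between 24.1 and 53.9, the sgLuc SGC0946 libraries at 140.5 and 158 and the sgLuc DMSO libraries at 429 and 394, and MT1F forms 32.9% to 38.6% of the metallothionein counts in sgLuc SGC0946 libraries.

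The makeup of the metallothionein pool differed between the groups as well as its size. The summed level was 46.1 ± 7.43 CPM in sgUTX SGC0946 (SD, n = 4), against 149 ± 12.4 CPM in sgLuc SGC0946 (SD, n = 2). MT1F supplied 15.8% to 19.8% of the metallothionein counts in sgUTX SGC0946 and 32.9% to 38.6% in sgLuc SGC0946 libraries, against 5.86% to 9.83% in sgUTX DMSO and 3.56% to 3.67% in sgLuc DMSO libraries. MT2A supplied 38.7% to 48.3% in sgUTX SGC0946 and 32.5% to 38.2% in sgLuc SGC0946 libraries, against 46.7% to 62.5% in sgUTX DMSO and 59.6% to 60.03% in sgLuc DMSO libraries. These shares are of counts and are not corrected for transcript length.

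For levels between genes, CPM were divided by gene length in kilobases, first the length of all annotated exons joined and then, as an alternative chosen after seeing the data, the median length of the coding transcripts. By exon length, sgLuc DMSO cells had 189 ± 10.3 CPM per kilobase of MT2A, 125 ± 10.5 of MT1E, 12.5 ± 0.128 of SLC30A1, 9.85 ± 0.191 of MT1X, 7.86 ± 0.294 of MT1F, 4.55 ± 0.406 of MTF1 and 1.503 ± 0.0146 of MT1G (SD, n = 2 each). No neighbours in that order overlapped. By transcript length the metallothioneins stood higher, with 360 ± 19.6 CPM per kilobase of MT2A, 187 ± 15.7 of MT1E, 35.4 ± 0.684 of MT1X and 26.8 ± 1.00 of MT1F, ahead of SLC30A1 at 12.5 (SD, n = 2 each). MT1G, at 2.78 ± 0.0270, stayed below SLC30A1 and below MTF1 at 4.58 ± 0.409 (SD, n = 2 each).

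The order changed with SGC0946 and with the length used. By exon length, sgLuc SGC0946 cells had 40.8 ± 7.99 CPM per kilobase of MT2A, 36.6 ± 2.31 of MT1E and 28.1 ± 0.866 of MT1F, and by transcript length MT1F came first with 96.1 ± 2.96, against 77.5 ± 15.2 for MT2A and 54.7 ± 3.45 for MT1E (SD, n = 2 each). By transcript length, sgUTX DMSO cells had 25.8 ± 8.24 CPM per kilobase of MT2A, 13.1 ± 1.24 of MT1E, 10.6 ± 0.700 of SLC30A1, 5.62 ± 0.185 of MTF1, 4.62 ± 0.874 of MT1F and 4.56 ± 0.865 of MT1X (SD, n = 4 each). MT1F and MT1X did not differ beyond their spread there.

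Between the 2 UTX guides, MT2A was the member with the largest difference in both treatments. In sgUTX_4 against sgUTX_2, 0 of 6 genes were called in DMSO, where 3.49% of all genes were called (1.72% higher and 1.77% lower), and 0 of 6 in SGC0946, where 3.01% were (1.61% higher and 1.40% lower, edgeR quasi-likelihood test). At an unadjusted p under 0.05 there were 1 in DMSO, MT2A, and 2 in SGC0946, MT1F and MT2A. DESeq2 called 1, MT2A in DMSO, and 0 in SGC0946. MT2A was higher in both sgUTX_4 libraries than in both sgUTX_2 libraries, with a log2 difference of 0.78 in DMSO (SE 0.19, adjusted p = 0.0543) and 0.59 in SGC0946 (SE 0.18, adjusted p = 0.126). MT2A was called between the guides in DMSO without the first sgUTX_2 DMSO, either sgLuc SGC0946 or either sgUTX_2 SGC0946 library (adjusted p 0.00198 to 0.037), and in SGC0946 without either sgLuc SGC0946 library (0.0128 and 0.0129). MT1G, at or under 3 counts with each guide, was not compared.

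The annotation holds 21 metallothionein genes and pseudogenes on its list, 14 of which had 0 counts in all 12 libraries. Beside the 5 described, the pseudogene MT1L reached 10 counts. It had 3 and 5 counts in sgUTX_2 SGC0946, 1 and 2 in sgUTX_4 SGC0946 and 10 and 10 in sgLuc SGC0946 libraries, against 0 and 0 in sgUTX_2 DMSO, 1 and 1 in sgUTX_4 DMSO and 2 and 3 in sgLuc DMSO libraries. MT1L was thus most often counted in sgLuc SGC0946 libraries, as MT1F was, and these counts are too low for a test.

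**Figure D4:**
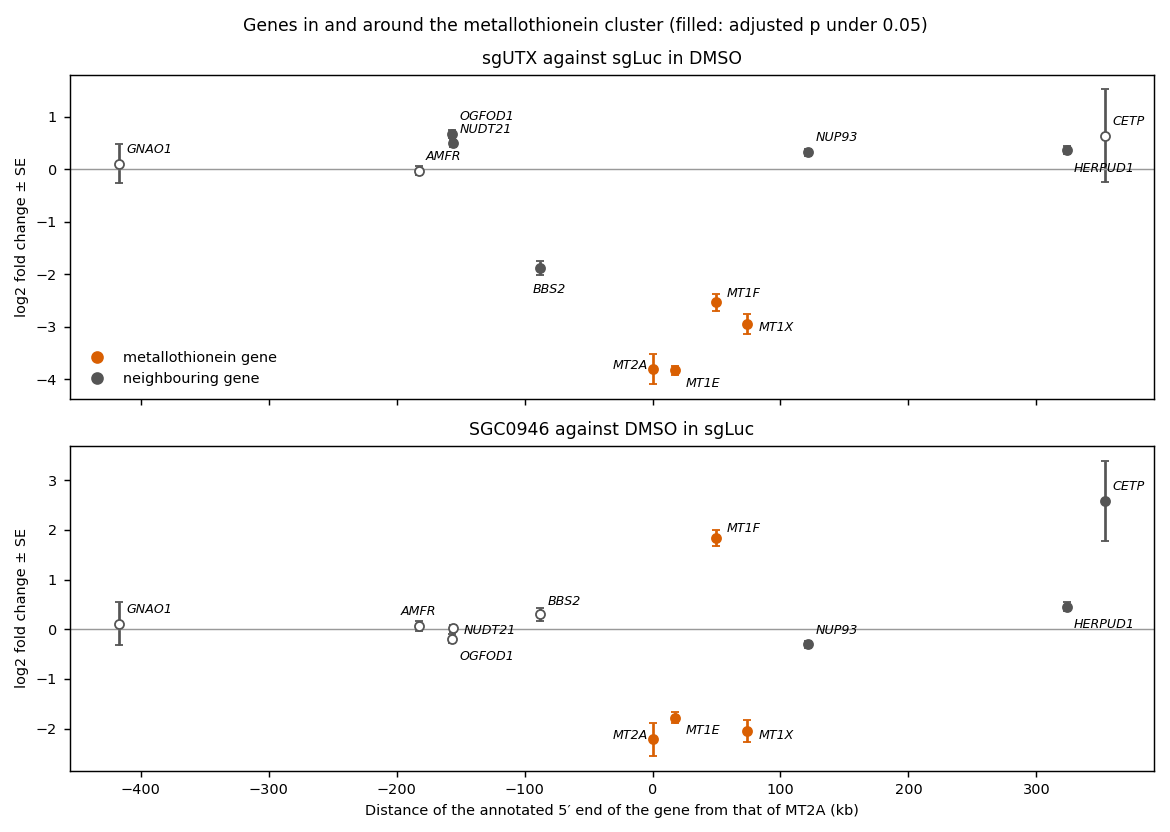
Log2 fold changes with standard errors (vertical axes) of 4 metallothionein genes and 8 neighbouring genes by the distance of their annotated 5′ end from that of MT2A in kilobases (horizontal axis), in sgUTX against sgLuc with DMSO (top) and SGC0946 against DMSO in sgLuc (bottom). BBS2, 87.9 kb before MT2A, lies at -1.88 in the top panel and NUP93, 121.9 kb after it, at 0.33, and MT1G, at 0 in the sgUTX DMSO libraries, is not drawn.

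In GENCODE 29 (GRCh38) the 5 metallothionein genes lie on chromosome 16, MT2A (ENSG00000125148) at 56608199 to 56609497, MT1E (ENSG00000169715) at 56625475 to 56627112, MT1F (ENSG00000198417) at 56657694 to 56660698, MT1G (ENSG00000125144) at 56666731 to 56668065 and MT1X (ENSG00000187193) at 56682424 to 56684196. MT1G is on the minus strand and the other 4 are on the plus strand. MTF1 (ENSG00000188786) lies on chromosome 1 at 37809567 to 37859620 and SLC30A1 (ENSG00000170385) on chromosome 1 at 211571568 to 211578742, both on the minus strand. Opposite changes of MT1F and of MT1E, MT1X and MT2A under SGC0946 in sgLuc cells thus occurred within 74.2 kb.

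Of 8 tested genes that flank the cluster, 4 were higher and 1 was lower in sgUTX against sgLuc in DMSO, where 28.7% of all genes were called higher and 32.3% lower. The 1 lower gene was BBS2, a subunit of the BBSome complex of cilia, with 5.05 ± 0.629 CPM in sgUTX DMSO (SD, n = 4), against 18.5 ± 1.02 CPM in sgLuc DMSO (SD, n = 2), which is -1.88 on the log2 scale (SE 0.13, adjusted p = 2.19e-11). The others were OGFOD1, a prolyl hydroxylase of a ribosomal protein (0.67), NUDT21, a cleavage factor of messenger RNA 3′ ends (0.49), HERPUD1 of endoplasmic reticulum quality control (0.37) and NUP93 of the nuclear pore (0.33). The median over the 8 neighbours was 0.35, beside -0.01 over all genes. The log2 fold changes of MT2A, MT1E, MT1F and MT1X were all below that of BBS2, the lowest of these neighbours.

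Other zinc transporter genes were described against the same shares of all genes (28.7% higher and 32.3% lower). Of 4 tested SLC30 exporters beside SLC30A1, 2 were higher in sgUTX against sgLuc in DMSO and 0 were lower, with a median log2 fold change of 0.48. These were SLC30A7 (log2 fold change 0.93) and SLC30A5 (0.75), which load zinc into the secretory pathway. Of 11 tested SLC39 importers 6 were higher and 3 lower. SLC39A14 (ZIP14), an importer of zinc and iron at the plasma membrane, had 204 ± 12.1 CPM in sgUTX DMSO (SD, n = 4), against 88.3 ± 1.27 CPM in sgLuc DMSO (SD, n = 2), a difference of 1.21 on the log2 scale (SE 0.07, adjusted p = 1.87e-12). SLC39A11 of the same family had a log2 fold change of -0.59. The median of the importers was 0.38, beside -0.01 over all genes. Scaled by library size only, 4 of the 4 exporters were higher, and 7 importers were higher and 2 lower. That scaling called 6557 of all 15060 genes higher and 3272 lower, against 4325 and 4863 with TMM. It raised the median log2 fold change of all genes to 0.26, so these list counts moved along with the background.

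Of 11 genes of copper handling 3 were higher and 2 lower in the same comparison, beside 28.7% and 32.3% of all genes called. Their median log2 fold change was 0.09. Scaled by library size only, 6 were higher and 1 lower. All genes moved the same way, with 6557 of 15060 then called higher and 3272 lower, against 4325 and 4863 with TMM. The copper importer SLC31A1 (CTR1) had a log2 fold change of 1.05 and the copper exporter ATP7A of -1.12, while the copper exporter ATP7B was called higher (0.405). In SGC0946 against DMSO, 0 of the 11 were higher and 3 lower in sgLuc, beside 24.7% and 24.2% of all genes. In sgUTX cells 0 were higher and 1 lower, beside 17.4% and 16.4% of all genes.

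**Figure D5:**
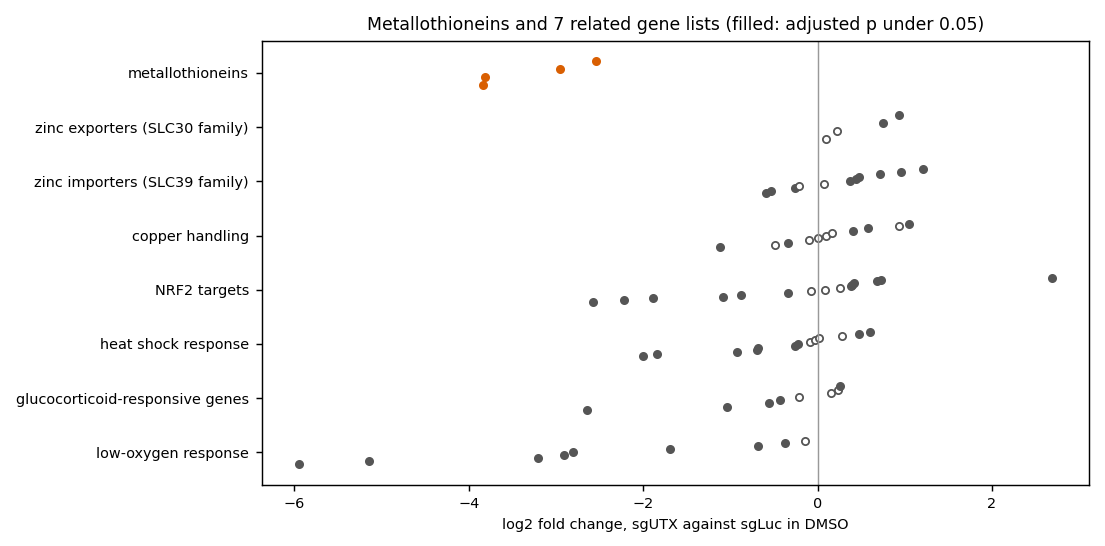
Log2 fold changes in sgUTX against sgLuc with DMSO (horizontal axis) of the metallothioneins other than MT1G and of 7 lists of related genes (vertical axis), 1 point per tested gene, filled where the adjusted p over all genes was under 0.05. The metallothioneins lie between -3.83 and -2.54, ADM of the low-oxygen list, near the floor in sgUTX, at -5.94 and SLC7A11 of the NRF2 list at 2.69.

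Lists of genes that answer to other inducers of metallothioneins were described in the same way. Of 9 tested low-oxygen response genes 8 were lower and 0 higher in sgUTX against sgLuc in DMSO, against a background of 32.3% called lower and 28.7% called higher. Their median log2 fold change was -2.81, beside -0.01 over all genes. PFKFB4, which sets the level of a glycolysis activator, had 5.59 ± 0.437 CPM in sgUTX DMSO (SD, n = 4), against 198 ± 5.65 CPM in sgLuc DMSO (SD, n = 2). NDRG1 had 149 ± 7.32 CPM in sgUTX DMSO (SD, n = 4), against 1367 ± 128 CPM in sgLuc DMSO (SD, n = 2). The hormone precursor gene ADM (-5.94) and the mitophagy receptor gene BNIP3 (-2.90) were also lower. ADM was near the floor in sgUTX DMSO, with 46 counts, against 1035 over the sgLuc DMSO libraries, so the size of its change is uncertain. In SGC0946 against DMSO, 6 of the 9 were lower and 0 higher in sgLuc (24.2% and 24.7% of all genes), and 4 were higher and 2 lower in sgUTX cells (17.4% and 16.4% of all genes).

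Of 15 NRF2 targets 5 were higher and 6 lower in sgUTX against sgLuc in DMSO, with a median log2 fold change of 0.08. These counts lie near the shares over all genes (28.7% higher and 32.3% lower) and are no result about the list. The cystine transporter gene SLC7A11 rose (2.69), and heme oxygenase gene HMOX1 (-2.58), OSGIN1 (-2.22) and the ferritin heavy chain gene FTH1 (-1.89) fell. OSGIN1 had only 46 counts over the sgUTX DMSO and 79 over the sgLuc DMSO libraries. In SGC0946 against DMSO in sgLuc cells 8 of the 15 were higher and 0 lower (24.7% and 24.2% of all genes), with HMOX1 at 10.7 ± 1.93 CPM in SGC0946, against 1.95 ± 0.993 CPM in DMSO libraries (SD, n = 2 each). NQO1, a quinone reductase, rose there by 1.36 on the log2 scale. In sgUTX cells 5 of the 15 were higher with SGC0946 and 0 lower (17.4% and 16.4% of all genes). Under SGC0946, HMOX1 had a log2 fold change of -5.38 and FTH1 of -2.60 in sgUTX against sgLuc. HMOX1 was near the floor in sgUTX cells, with 25 counts over the 4 DMSO and 21 over the 4 SGC0946 libraries. It passed the filter on low counts mainly through the sgLuc libraries, so its fold changes in sgUTX against sgLuc carry little weight.

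Of 13 heat shock response genes 2 were higher and 7 lower in sgUTX against sgLuc in DMSO, with a median log2 fold change of -0.23, where 28.7% of all genes were higher and 32.3% lower. The lower ones included the small chaperone gene HSPB1 (-0.92) and HSPA1A (-2.004) and HSPA1B (-1.84), twin genes between which reads can be divided. HSPA1A was near the floor, with 16 counts over the sgUTX DMSO and 24 over the sgLuc DMSO libraries, so its fold change carries little weight. Of 8 tested glucocorticoid-responsive genes 1 was higher and 4 lower, with a median of -0.32. TSC22D3 (GILZ) had 21.0 ± 3.18 CPM in sgUTX DMSO (SD, n = 4), against 131 ± 21.5 CPM in sgLuc DMSO (SD, n = 2), which is -2.64 on the log2 scale (SE 0.11, adjusted p = 7.11e-13). The kinase gene SGK1 had a log2 fold change of -1.04 in that comparison and of 4.08 in SGC0946 against DMSO in sgLuc cells. Scaled by library size only, 4 heat shock genes were higher and 5 lower in sgUTX against sgLuc in DMSO. The counts were 2 and 3 for glucocorticoid-responsive, 7 and 5 for NRF2 and 0 and 7 for low-oxygen genes. With that scaling 6557 of all 15060 genes were called higher and 3272 lower, against 4325 and 4863 with TMM. More higher and fewer lower calls in a list are therefore no result about that list.

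Genes were ranked by the Pearson correlation of their log2 CPM with that of MT2A over the 12 libraries, among the 9129 genes that averaged 10 CPM or more. The closest were BLVRA (r = 0.992), which encodes biliverdin reductase A, the ribosomal protein gene RPS28 (0.991), WDR45B (0.989), NUDT7 (0.986) and RNF181 (0.984). No such genes are named for MT1G, which was at 0 counts in 6 of the 12 libraries. The 12 points share 6 conditions, so these values describe a likeness of pattern only.

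Among the 7 genes themselves, r over the 12 libraries was 0.966 for MT1E with MT2A, 0.934 for MT1X with MT2A and 0.940 for MT1F with SLC30A1. It was 0.580 for MT1F with MT2A and -0.14 for MT2A with MTF1. MT1F was thus closer in pattern to the zinc exporter gene than to MT2A.

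Markers of monocytes (CD14, LYZ, CSF1R, FCGR1A, CD68) moved with both SGC0946 and the guides. All 5 had counts in each group, CD68 at most 9 over a group. Of the 4 tested, CD14, LYZ and CSF1R rose with SGC0946 in sgLuc and in sgUTX cells, and FCGR1A fell, with a log2 fold change of -1.03 in sgLuc and of -1.095 in sgUTX cells. In sgUTX against sgLuc, 3 of the 4 were lower in DMSO and 4 of the 4 in SGC0946, where 32.3% and 29.3% of all genes were called lower. The summed level of the 5, most of it LYZ, was 3018 to 4812 CPM in sgUTX SGC0946 and 10070 to 10230 CPM in sgLuc SGC0946 libraries, against 356 to 658 CPM in sgUTX DMSO and 580 to 644 CPM in sgLuc DMSO libraries. MT1F, MTF1 and SLC30A1 were highest in the same sgLuc SGC0946 libraries, and the part of the marker genes' change in these results was not tested. Lymphoid markers summed to at most 3.79 CPM, with MS4A1 at 0 in all groups, and the adherent cell markers EPCAM and COL1A1 to at most 6.03 CPM.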

How the data were processed

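The authors deposited 1 table of raw, whole-number read counts per gene for 58735 Ensembl identifiers in 12 libraries of total RNA, read as pairs of 150 bases per the labels' protocols. STAR 2.5.1b and the build hg19 are named per the submitters' processing notes. Since the identifiers are those of GENCODE 29, which annotates GRCh38, the build behind the counts is uncertain. Positions here follow GENCODE 29. Which program counted the reads, whether it used strand and how it handled reads matching more than 1 gene is not given in the sources used here.

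Total counts were 15480493 to 23262141. Each sample's labels gave its group. Chi-square per gene for the 2 libraries of 1 group was 2.85 to 6.29, and all 12 were kept as separate libraries. Whether these were separate cultures is not stated. The spread behind the p-values may therefore be technical only, apart from differences between the UTX guides where these were fitted as 1 group.

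Tests ran in edgeR 4.0.16 under R 4.3.3, with TMM scaling, filterByExpr, a robust quasi-likelihood fit and two-sided tests, adjusted by Benjamini-Hochberg over the 15060 genes kept and called at under 0.05. All 12 libraries were fitted in 4 groups (sgUTX or sgLuc, SGC0946 or DMSO), with 8 residual degrees of freedom, and in 6 groups to compare the guides. The fits were tested on simulated counts. Alternatives were library size scaling, DESeq2 1.42.0, no filter, 6 groups, a replicate block, either guide alone, leaving out each library, and, added after seeing the data, leaving out both sgLuc DMSO libraries.

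The members, the lists and the marker genes were chosen with earlier results of these data known. Of the marker genes 2 are not reported here, and the marker sums leave them out. The text names all 7 members, other metallothionein genes with at least 10 counts, at most 4 called genes of a list in a comparison, and the 5 genes most like MT2A in pattern, Y-linked genes left out. The rule also named 5 for MT1G, which are not given because it is at 0 in 6 of 12 libraries. BBS2 and the other list genes named are a part of those the rule allows, chosen after their values were seen. Promoters are RefSeq's (GRCh38.p14).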

Additional observations from a re-analysis of the deposited data

Results flagged for a closer look

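The response to SGC0946 differed between sgUTX and sgLuc cells for 4 of the 7 genes, by the edgeR quasi-likelihood test of the difference itself. The difference, sgUTX minus sgLuc, was 2.35 on the log2 scale for MT1E, 2.74 for MT1X and 2.41 for MT2A. MT1E and MT1X were higher with SGC0946 than with DMSO in sgUTX cells and lower in sgLuc cells, and MT2A was not called in sgUTX cells and was lower in sgLuc cells. For MTF1 the difference was -1.06, with a log2 fold change of 0.15 in sgUTX cells and 1.21 in sgLuc cells. The 4 sgUTX libraries of a treatment were checked for each gene, except MT1G in DMSO where all are at 0, and in 0 of 13 such groups did a library stand apart from the other 3.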

How the results depend on the processing

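Of 543 alternative values of the 28 called results of single genes, 525 kept their direction and call, 17 lost the call and 1 reversed. The reversed one was SLC30A1 in sgUTX against sgLuc in DMSO, at 0.039 on the log2 scale when scaled by library size only, which itself moved the median of all genes. That scaling moved the share of higher among called genes from 47.1% to 66.7% there, from 48.6% to 65.0% in SGC0946, from 50.6% to 60.9% for SGC0946 in sgLuc and from 52.6% to 40.6% for the difference of responses. Among results not called, the MT1F difference of responses was 0.17 with sgUTX_4 alone.

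The number of the 7 genes called for SGC0946 in sgUTX cells was 3 with sgUTX_2 alone (MT1X and MTF1 lost) and 3 with sgUTX_4 alone (SLC30A1 and MTF1 lost), each a fit with fewer libraries. Shares over all genes are not given for these fits. MTF1 in that comparison lost its call with DESeq2 (adjusted p = 0.0747), without the filter (0.167) and with the replicate block (0.0589). SLC30A1 in sgUTX against sgLuc in DMSO lost it without the filter (0.111). Between the guides, 1 gene was called in DMSO with library size scaling, with DESeq2 and without the filter, and 1 in SGC0946 without the filter. The causes were not tested.

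With 1 library left out, the log2 fold change in sgUTX against sgLuc in DMSO ranged from -3.99 to -3.64 for MT2A and from -3.915 to -3.74 for MT1E. It ranged from -2.63 to -2.44 for MT1F, from -3.06 to -2.87 for MT1X, from 0.21 to 0.39 for MTF1 and from -0.27 to -0.19 for SLC30A1. Counts of called genes are not given for these fits, since some groups then held 1 library. Small log2 differences that were not called crossed 0 with 1 library left out. MT1X in sgUTX against sgLuc in SGC0946 ranged from -0.47 to 0.095. In sgUTX_4 against sgUTX_2 with DMSO, MT1E ranged from -0.23 to 0.051, MT1F from -0.42 to 0.10, MT1X from -0.29 to 0.23 and MTF1 from -0.046 to 0.069, and with SGC0946 MT1E from -0.027 to 0.19 and MT1X from -0.16 to 0.38.

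Replicate numbers did not pair the libraries: over 15 pairs of groups the correlation of deviations was -0.31 to 0.20, and 2 pairs exceeded 0.1. With the replicate block, 7 of the 7 genes were called for sgUTX against sgLuc in DMSO and 6 in SGC0946. For SGC0946 against DMSO, 6 were called in sgLuc and 4 in sgUTX cells, and 4 for the difference of responses. Between the guides 0 were called in each treatment. The shares over all genes with the block are not given here, so these counts describe the 7 genes only. MT1G, with at most 18 counts in a library, has its size in sgUTX against sgLuc only as counts or against a floor.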
